A study of Mus musculus with 24 samples.

Results

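Gene deserts are long stretches of a chromosome that hold no protein-coding gene. Here they were taken as the autosomal tiles of 10 kb that lie 200 kb or more from every protein-coding gene, with 5 or more CpG rows and 30 or more methylation calls in every library. By that rule 44313 of 233969 tested autosomal tiles (18.9%) were gene desert tiles, out of 248191 tested on the autosomes and chromosome X. They cover 443 Mb and fall into 705 deserts, each a stretch between the same pair of neighbouring protein-coding genes, with a median of 35 and at most 411 tiles. The rule used position and depth and no methylation value. A further 798 tiles met the distance and had too few calls.

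The libraries came from mouse induced pluripotent stem (iPS) cells grown on feeder cells and from embryoid bodies, the cell aggregates in which such cells begin to differentiate. Knock-in (KI) cells, clones N5 and N9, carry an allele that expresses miR-203 on doxycycline, and wild-type (WT) cells were the control. Each of these was profiled at t=0 before doxycycline, on day 10 and on day 25, and as embryoid bodies on day 32. Doxycycline was given for 5 days, so day 10 and day 25 lie 5 and 20 days after its withdrawal, and the labels of the WT iPS libraries name it too. There were 2 KI libraries, 1 per clone, and 1 WT library at each of the 4 stages, 12 in all, and each clone is a single line. The label of the WT embryoid bodies gives 10 days of differentiation and names no doxycycline, while those of the KI embryoid bodies name doxycycline and the design text gives day 32. The study's title places the question in the control of DNA methylation by this microRNA.

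In mammalian cells most CpGs outside promoters and active enhancers are methylated. DNMT3A and DNMT3B set the mark and DNMT1 with UHRF1 copies it at replication. Some deserts hold distant enhancers of developmental regulators, others border genes of neuronal adhesion, and CpG-dense promoters are as a rule unmethylated wherever they lie. The assay was whole-genome bisulfite sequencing after oxidation, so that 5-methylcytosine is counted without 5-hydroxymethylcytosine. A level is the share of methylated calls among all calls, pooled over the CpGs of a tile or of a group of tiles, in percent, and a point is 1 percentage point of that share.

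Libraries held 102896335 (WT on day 25) to 191210205 calls (N5 on day 25), or 4.70 to 8.74 calls per CpG. Desert tiles had a median of 48 CpG rows, against 74 in the 79385 tiles under 200 kb from a gene and touching none and 91 in the 110271 tiles touching a gene. Their shallowest library had a median of 154 calls per tile, against 323 and 470 calls in those groups, so a change of the same size was harder to call in a desert tile. N5 at t=0, on day 25 and in embryoid bodies was read on another flow cell than the other 9 libraries. Windows at the CpG-denser end of 8 pluripotency genes were methylated at 0.79% (Nanog) to 56.9% (Esrrb) in the clones' iPS libraries, and those of 10 feeder fibroblast genes at 0% (Fn1) to 66.9% (Postn). Methylation does not measure expression, so these neither bear out nor contradict the labelled cell type. Coverage of the first 3000000 bp of chromosome Y relative to the autosomes was 0.0378 and 0.0394 in the t=0 libraries of N5 and N9, and 0.0127 and 0.0107 in their day 25 libraries. It was at most 0.00186 in the other 8 libraries. Its part in the stage comparisons was not tested. Coverage of chromosome 8 relative to the autosomes was 1.09 to 1.36 in the 8 KI libraries and 0.999 to 1.04 in the 4 WT libraries. That of chromosome X was 0.589 and 0.590 in N5 and N9 at t=0 and 0.788 and 0.779 on day 10. It was 0.681 and 0.699 on day 25 and 0.723 and 0.586 in embryoid bodies. In WT it was 0.753, 0.763, 0.770 and 0.697 at the same stages. The part of chromosome X in the comparisons was not tested.

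A few short stretches inside the deserts carried almost no methylation, and they are shown for their level and CpG number. Of the 300-bp windows around RefSeq transcription starts (250 bases before and 50 after, GRCm38.p6), 974 windows of 850 genes lay in desert tiles, and all were of long non-coding RNAs. In these windows 3147 of 3155 CpG rows fell on a CG of the RefSeq sequence, and 184 windows that do not overlap each other had at least 5 CpG rows and 10 calls in every library. The window with the lowest level and the most CpG rows was that of 2410018L13Rik (chr12:23010194-23010493, minus strand, mm10), with 1 methylated call of 882 over all libraries and 32 CpG rows. That of D230030E09Rik (chr12:118530144-118530443, minus strand) had 20 of 1877 calls methylated (1.07%) over 18 CpG rows. As a contrast at the same number of CpG rows, that of Gm46244 (chr1:113145271-113145570, plus strand) had 920 of 1079 calls methylated (85.3%). Long stretches of the Gm46244 window recur nearly unchanged in the start window of Gm35195 on chromosome 6, so it is not unique sequence. Whether other copies added to its calls was not tested. The last window belongs to Mir100hg (chr9:41376276-41376575, plus strand), the host transcript of mir-100, let-7a-2 and mir-125b-1, which held 13.7% methylated calls over 15 CpG rows. The sequences are from RefSeq, read 5′ to 3′ on the gene's strand, with each CG in capitals.
2410018L13Rik: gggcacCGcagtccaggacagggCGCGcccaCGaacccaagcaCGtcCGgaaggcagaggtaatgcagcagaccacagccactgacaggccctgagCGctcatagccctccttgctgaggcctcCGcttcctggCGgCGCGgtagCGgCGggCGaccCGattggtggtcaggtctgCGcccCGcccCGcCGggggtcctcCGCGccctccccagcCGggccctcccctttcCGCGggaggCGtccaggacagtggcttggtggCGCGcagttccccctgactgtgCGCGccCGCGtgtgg
D230030E09Rik: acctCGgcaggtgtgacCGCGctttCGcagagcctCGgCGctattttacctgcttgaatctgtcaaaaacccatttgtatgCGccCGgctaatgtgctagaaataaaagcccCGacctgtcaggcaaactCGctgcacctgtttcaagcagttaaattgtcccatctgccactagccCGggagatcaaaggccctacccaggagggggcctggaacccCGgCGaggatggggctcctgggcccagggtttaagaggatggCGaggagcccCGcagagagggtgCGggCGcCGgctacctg
Gm46244: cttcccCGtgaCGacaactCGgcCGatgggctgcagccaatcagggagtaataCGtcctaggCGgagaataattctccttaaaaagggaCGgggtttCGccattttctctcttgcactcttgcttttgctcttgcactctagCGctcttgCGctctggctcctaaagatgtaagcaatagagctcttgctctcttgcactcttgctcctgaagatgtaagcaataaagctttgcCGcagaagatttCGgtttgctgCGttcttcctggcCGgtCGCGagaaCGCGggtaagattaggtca
Mir100hg: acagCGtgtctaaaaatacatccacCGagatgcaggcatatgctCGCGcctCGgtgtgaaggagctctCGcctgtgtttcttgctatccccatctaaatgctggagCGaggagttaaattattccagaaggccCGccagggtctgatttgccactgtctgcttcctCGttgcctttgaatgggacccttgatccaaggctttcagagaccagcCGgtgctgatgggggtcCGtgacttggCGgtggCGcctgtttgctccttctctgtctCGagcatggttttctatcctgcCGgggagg

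The 2410018L13Rik window was at 0% in all 8 KI libraries and in WT libraries at t=0, on day 10 and in embryoid bodies, and at 0.72% in the WT library on day 25. In its shallowest library, with 20 calls, a count of 0 allows a level of up to 15%. The methylated Gm46244 window stood at 80% and 79.2% in N5 and N9 at t=0, at 92.8% and 84.6% on day 10, at 73.3% and 68.9% on day 25 and at 96.4% and 93.4% in embryoid bodies. In WT it was at 87.5%, 89.6%, 91.1% and 96.0% at the same stages. The methylated window thus had its lowest values in both clones on day 25.

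Desert sequence lost methylation in both KI clones after doxycycline and was above its starting level in embryoid bodies, while the WT level changed little among iPS stages. In N5 and N9 the pooled level was 73.7% and 73.5% at t=0, 70.1% and 69.5% on day 10, 58.4% and 57.2% on day 25 and 79.7% and 81.5% in embryoid bodies. In WT it was 71.0%, 71.2%, 70.9% and 78.5% at the same stages. At day 25 both clones lay below every other library, and in embryoid bodies both lay above WT. The 95% Wilson interval of the N5 level on day 25 ran from 58.38% to 58.43% and covers counting error only, so the spread between clones sets the precision.

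**Figure D1:**
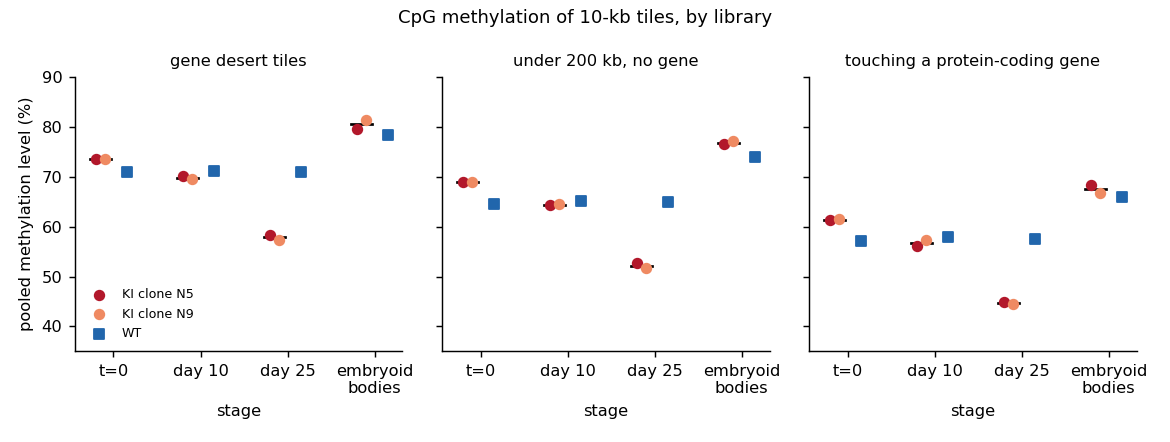
Pooled methylation level (%) by stage for gene desert tiles (left), tiles under 200 kb from a gene and touching none (middle) and tiles touching a protein-coding gene (right). Circles are the KI clones N5 and N9 with a bar at their mean, squares the single WT library; desert tiles lie highest at every stage, and the KI clones drop to 58.4% and 57.2% there on day 25.

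The clones' mean change from t=0 was -3.78 ± 0.27 points on day 10, -15.7 ± 0.69 points on day 25 and 7.02 ± 1.41 points in embryoid bodies (SD, n = 2 clones). The WT library moved by 0.25, -0.054 and 7.52 points over the same intervals. Embryoid bodies stood 22.8 ± 2.10 points above day 25 in the clones and 7.57 points above it in WT. With 2 clones against 2, a two-sided exact permutation test cannot go below p = 0.33, and no other test was run on these pooled changes. N9 and WT were read on 1 flow cell at all stages, and there the change on day 25 was -16.2 points in N9 against -0.054 points in WT. N5 at t=0 and day 25 shared the other flow cell and changed by -15.3 points.

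Tile by tile, the fall on day 25 was nearly general. Both clones were lower on day 25 than at t=0 in 43463 of 44313 desert tiles (98.1%), while WT was lower in 22536 tiles (50.9%). By edgeR's quasi-likelihood F test, 40358 desert tiles (91.1%) fell on day 25 at an adjusted p under 0.05, against 95.1% of all tiles tested. No desert tile rose by edgeR, also at an unadjusted p under 0.05, against 0.000806% of all tiles, and limma called 1 higher. The median change of a desert tile was -15.6 points, or -1.02 in log2 odds, beside -16.5 points and -1.08 over all tiles. The 3955 desert tiles without a call had a median of 90 calls in their shallowest library, against 162 calls in those called, and 3192 of them were lower in both clones. A desert tile's change in N5 said little about its change in N9, with a Pearson r of 0.089 over the tiles, against 0.449 over tiles touching a gene, which hold more calls. The tiles share their libraries, and the r is given as a description.

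**Figure D2:**
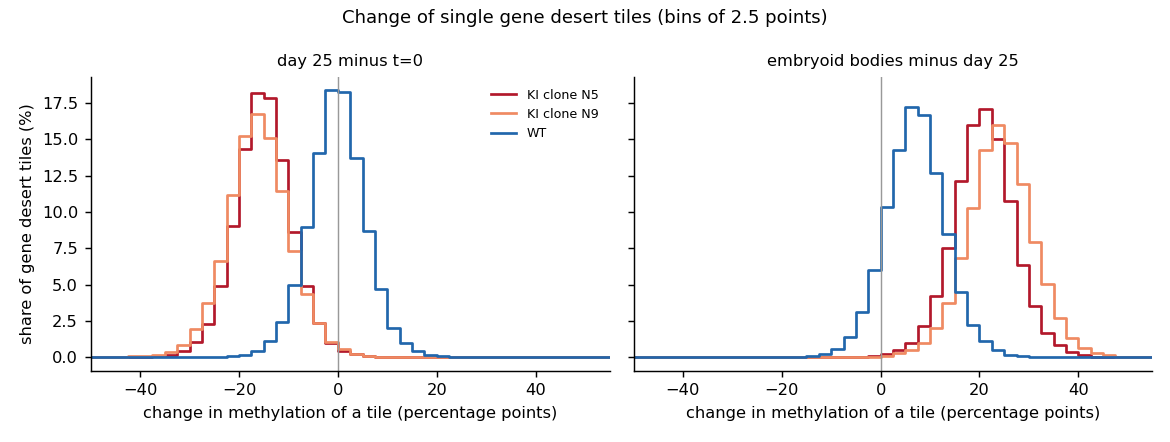
Distribution of the change of single gene desert tiles in percentage points (x axis, bins of 2.5 points) as a share of the 44313 tiles (y axis, %), for N5, N9 and WT, from t=0 to day 25 (left) and from day 25 to embryoid bodies (right). At day 25 the medians are -15.1 points in N5, -16.1 points in N9 and -0.11 points in WT.

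At day 10 the fall was small. By edgeR 1282 desert tiles (2.89%) fell, against 9.67% of all tiles, and 6 rose (0.0135%), against 0.0342% of all tiles, with a median desert change of -3.57 points. Of the 1282 tiles, 1281 were also called lower on day 25, a comparison with the same t=0 libraries. Limma called none, and a flow cell term left 0.99% of desert tiles changed, or 0.00903% together with the clone as a block. The share called was 0.0542% and 0.113% with the t=0 library of N5 or N9 left out, and 0.00903% and 1.62% with the day 10 library of N5 or N9 left out.

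Nearly every desert tile was more methylated in embryoid bodies than on day 25 in the clones. Against day 25, 43874 desert tiles (99.01%) rose by edgeR, against 99.4% of all tiles. None fell by edgeR, none also at an unadjusted p under 0.05, against 0% of all tiles, and limma called none. The median desert change was 22.5 points. Against t=0, 17805 desert tiles (40.2%) rose and 14 fell (0.0316%), beside 57.1% and 0.0975% of all tiles. The share changed against t=0 was 24.1% and 21.5% with the t=0 library of N5 or N9 left out and 18.7% with the embryoid body library of N9 left out.

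Most desert tiles were called different between the clones and WT on day 25, and few at the other stages. At day 25 the clones' mean lay 13.1 points below the WT library. By edgeR, with the single WT library assumed to vary as the clones do, 27850 desert tiles (62.8%) were lower in KI, against 74.5% of all tiles. A single tile was higher (0.00226%), against 0.00927% of all tiles. With the clone as a block and a flow cell term together, 39.5% of desert tiles differed. The change from t=0 to day 25 itself differed between KI and WT in 20571 desert tiles (46.4%) on the lower side, against 67.4% of all tiles, and in 2 tiles (0.00451%) on the higher side, against 0.00363%. The median difference in change was -15.4 points in desert tiles.

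At t=0 the pooled desert level was 2.69 points higher in N5 and 2.51 points higher in N9 than in WT. There 204 desert tiles (0.460%) were higher, against 1.46% of all tiles, and 39 (0.0880%) were lower, against 0.0697%. At day 10 KI lay 1.14 points below WT in N5 and 1.71 points below it in N9. By edgeR 20 desert tiles (0.0451%) were lower there, against 0.0822% of all tiles. None was higher on day 10, against 0.0149%, while 503 were at an unadjusted p under 0.05 and limma called none. In embryoid bodies KI stood 1.20 points (N5) and 3.01 points (N9) above WT, with 40 desert tiles (0.0903%) higher, against 0.305%, and 27 (0.0609%) lower, against 0.0673%. Limma called no desert tile at t=0, on day 10 or in embryoid bodies. With the clone block and the flow cell term, edgeR called 0.0339% of desert tiles at t=0, 0.0722% on day 10 and 0.0226% in embryoid bodies. At t=0 0.548% of desert tiles differed in either direction with all libraries, 0.0429% and 0.0587% with the t=0 library of N5 or N9 left out, 0.248% with either clone's day 25 library left out, and 0.869% and 0.855% with the embryoid body library of N5 or N9 left out.

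The few desert tiles that were lower in KI than in WT at these stages lay largely on chromosome 8. They numbered 27 of 39 at t=0, 11 of 20 on day 10 and 19 of 27 in embryoid bodies, while chromosome 8 holds 2598 of the 44313 desert tiles. Desert tiles of chromosome 8 had a pooled level of 71.7% in N5 and 71.4% in N9 at t=0, the lowest of the 19 autosomes in both clones, against 71.0% in WT. The coverage of this chromosome in the clones is given above, and its part in the difference was not tested. With chromosome 8 left out, 0.0144% of desert tiles differed on day 10, against 0.0451% with it. The fall on day 25 was much alike on all autosomes, between -16.1 points (chromosome 13) and -15.3 points (chromosome 1) in the clones' mean.

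Desert tiles were more methylated than the rest of the autosomes in every library. Their pooled level exceeded that of tiles touching a protein-coding gene by 13.0 ± 0.97 points (SD over 12 libraries) and that of tiles under 200 kb and touching none by 5.15 ± 0.94 points. These levels weight each tile by its calls, and as unweighted means of tile levels the differences were 6.91 and 2.30 points, also above 0 in 12 of 12 libraries. Both pooled differences held in 12 of 12 libraries, with p = 0.000488 in a two-sided exact sign-flip permutation test over libraries, also after adjustment over both, which is the smallest p the test can give. Libraries of 1 clone share a source, which the test does not take up.

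The difference came with CpG number. Among tiles with 60 or more CpG rows, deserts lay 14.7 points above tiles touching a gene and 6.64 points above the tiles between, in 12 of 12 libraries each. This class has no upper limit, so the groups in it are not matched on CpG number. Over all tiles the 90th percentile of CpG rows was 90 in deserts, 169 in tiles touching a gene and 126 in the tiles between. With 40 to 59 rows the desert excess was 0.82 points over tiles touching a gene (10 of 12 libraries) and 0.55 points over the tiles between (11 of 12). With 20 to 39 rows it was 0.63 points (11 of 12) and 0.28 points (8 of 12, exact p = 0.083). The 94 desert tiles with 5 to 19 rows differed from tiles touching a gene by 0.13 points (6 of 12 libraries higher, exact p = 0.745) and from the tiles between by -0.44 points (5 of 12, exact p = 0.195).

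**Figure D3:**
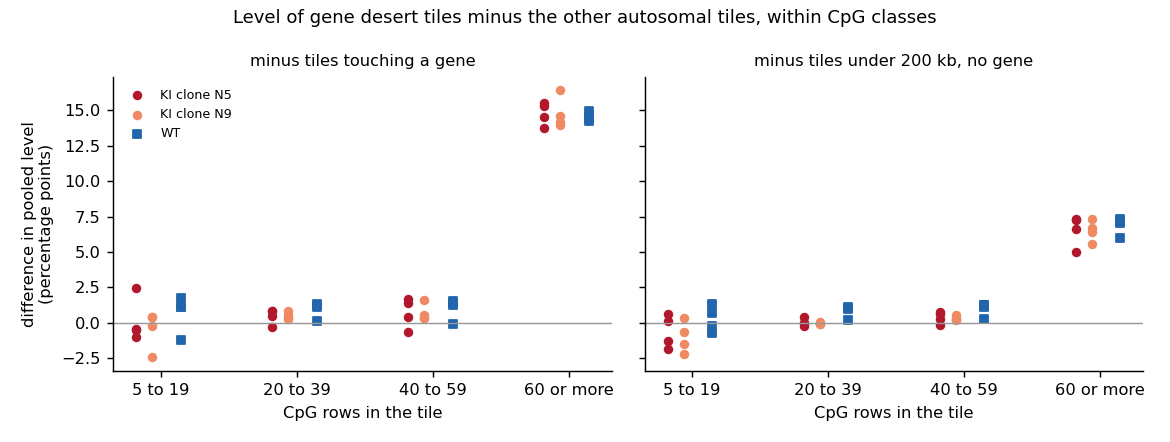
Pooled level of gene desert tiles minus that of tiles touching a gene (left) or of tiles under 200 kb from a gene and touching none (right), in percentage points, within classes of CpG rows per tile. Each point is 1 of 12 libraries (circles KI, squares WT). The class of 60 or more rows stands apart, at 13.7 to 16.4 points on the left and 5.00 to 7.33 points on the right. It has no upper limit, so the groups in it are not matched on CpG number.

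The loss on day 25 was of similar size in points and, over tiles of all CpG numbers together, smaller in proportion in the deserts. In desert tiles N5 and N9 kept 79.3% and 77.9% of their t=0 level, against 73.2% and 72.2% in tiles touching a gene and 76.6% and 74.9% in the tiles between. The change was -15.7 ± 0.69 points in desert tiles, against -16.7 ± 0.49 points in tiles touching a gene (SD, n = 2 clones). Both clones showed this order, which was not tested. At 60 or more CpG rows N5 and N9 kept 79.2% and 77.7% in deserts, against 76.2% and 74.3% in the tiles between. At 40 to 59 rows they kept 79.5% and 78.1%, against 78.8% and 77.7%, and at 20 to 39 rows 78.87% and 77.74%, against 78.93% and 77.65%. At 5 to 19 rows the values were 77.2% and 77.9%, against 78.4% and 79.4%. Tiles touching a gene kept 77.6% and 76.3% at 40 to 59 rows and 78.2% and 76.9% at 20 to 39 rows. Most of them (85609 of 110271) had 60 or more rows, a class without an upper limit. There their level went from 60.3% and 60.5% at t=0 to 44.0% and 43.5% on day 25. In desert tiles of that class it went from 74.8% and 74.7% to 59.3% and 58.1%. Among desert tiles the share kept rose with the level in the WT library at t=0, which the clones' change does not use. It was 68.2% in both clones in the 285 tiles under 50% in WT. It was 78.0% (N5) and 76.7% (N9) in the 14712 tiles at 60 to 70%, and 83.1% and 81.8% in the 3040 tiles at 80 to 90%. In points the clones' mean change differed little, at -14.8, -16.0 and -14.2 in these classes.

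Distance from genes moved with the difference between KI and WT before doxycycline. At t=0 KI exceeded WT by 3.53 points in desert tiles 200 to 300 kb from a gene, by 2.98 points at 300 to 500 kb, by 1.65 points at 500 to 1000 kb and by 0.40 points beyond 1000 kb. The clones' mean level was 73.9%, 73.9%, 73.1% and 72.5% in these bins, while the WT level was 70.3%, 71.0%, 71.4% and 72.1%. CpG rows fall with distance too, with medians of 57, 51, 45 and 42 per tile. Within tiles of 60 or more CpG rows the difference was 4.33 points nearest to genes and 1.35 points farthest, and within tiles of 40 to 59 rows it was 2.29 and 0.26 points. The single-tile calls point the same way, with 103 of 11434 tiles (0.901%) higher in KI at 200 to 300 kb and 6 of 6383 (0.0940%) beyond 1000 kb, both under the 1.46% of all tiles tested. Tiles nearer to genes hold more calls, with medians of 206 and 120 in the shallowest library for those bins, so the shares are not on equal depth. The change on day 25 was -16.1 ± 0.70 points at 200 to 300 kb and -15.0 ± 0.68 points beyond 1000 kb.

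**Figure D4:**
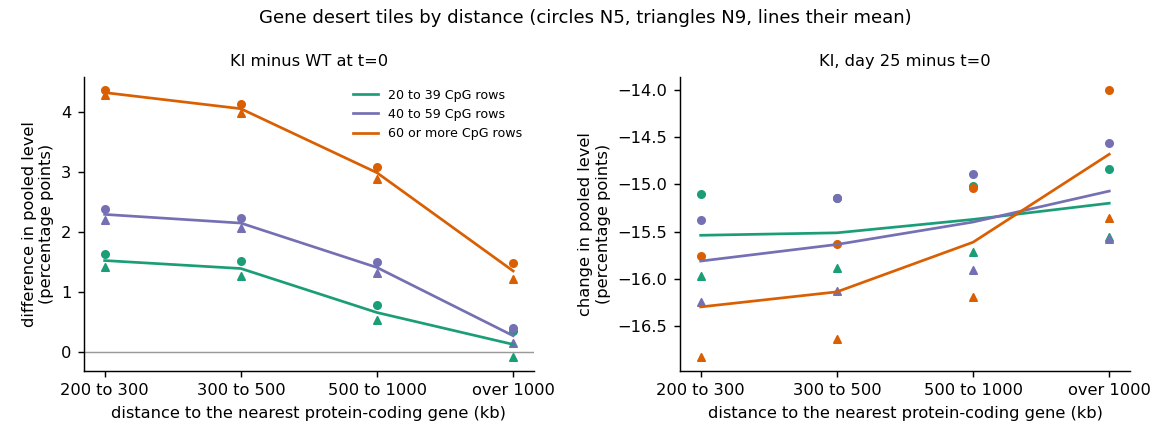
Gene desert tiles by distance to the nearest protein-coding gene (x axis, kb) within classes of CpG rows. Left, KI minus WT at t=0 in percentage points; right, KI on day 25 minus t=0; circles are N5, triangles N9 and lines their mean, and in the left panel all 3 lines come down with distance, the top one to 1.35 points.

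Tiles just inside the limit, at 200 to 210 kb (1355 tiles), had a clones' mean of 74.1% at t=0 and a change of -16.1 ± 1.01 points on day 25. Those just outside, at 190 to 200 kb (1412 tiles), had 73.9% and -16.3 ± 0.63 points. The change differed across the limit by less than the spread between clones.

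The 5 largest deserts border mostly genes of cell adhesion and neuronal wiring. The stretch between Pcdh20 and Pcdh9, both protocadherins, holds 411 tiles (chr14:88680001-92810000). Its level in N5 and N9 was 73.7% and 73.3% at t=0, 70.8% and 69.8% on day 10, 58.6% and 56.8% on day 25, and 80.01% and 81.9% in embryoid bodies. In WT it was 73.2%, 73.2%, 72.7% and 78.9%. At t=0 the clones thus stood 0.50 and 0.098 points above WT here, and on day 25 far below it. The 407 tiles between Celf4, an RNA-binding regulator of splicing and translation in neurons, and Pik3c3, the class III phosphatidylinositol 3-kinase, had 58.7% and 57.5% in the clones on day 25, against 71.3% in WT. The 397 tiles between Olfm4, a secreted glycoprotein of intestinal stem cells, and the protocadherin gene Pcdh17 had 58.2% and 57.5%, against 71.3%. The 377 tiles between Cntnap5b, a contactin-associated protein, and the cadherin gene Cdh20 had 60.04% and 59.2%, against 71.7%. The 355 tiles between Tenm3, a teneurin that guides axons, and Aga, a lysosomal glycosidase, lie on chromosome 8 and had 54.2% and 52.7%, against 70.3% in WT. This last desert already stood at 68.7% and 68.3% in the clones at t=0, against 71.1% in WT, the reverse of the order in the other 4.

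All 479 deserts with 20 or more tiles were lower in both clones on day 25 than at t=0. Their change ran from -20.6 to -12.3 points with a median of -15.7 points, while in WT it ran from -2.54 to 3.79 points, with 235 of 479 below 0. Among the 3 deserts with the largest fall, picked on these values, was that between Mn1, a transcriptional coactivator, and the lens crystallin gene Cryba4 (median of 110 CpG rows). It had 48.0% and 47.8% in N5 and N9 on day 25, against 68.6% and 68.5% at t=0. In WT this desert had 62.4% on day 25 and 62.5% at t=0. The desert between Enc1, an actin-binding protein of the nervous system, and Arhgef28 had 46.2% and 44.7% on day 25, against 65.4% and 65.1% at t=0. Among the smallest changes was the stretch between Adam6a and Zfp386, which holds the variable segments of the immunoglobulin heavy chain, with 55.4% and 55.3% on day 25, against 68.0% and 67.6% at t=0. The WT values were 63.5% and 63.1% at those stages. Antigen receptor segments are not annotated as protein-coding, and 229 desert tiles overlap one.

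Deserts beside developmental regulators were compared with those beside neuronal adhesion genes. Of 125 listed regulators 123 were matched, and 69 of them border 79 deserts with 4345 tiles, with a median of 58 CpG rows. Of 97 listed adhesion and synapse genes 95 were matched, and 72 border 100 deserts with 13494 tiles (30.5% of all desert tiles), with a median of 44 CpG rows. At day 25, 4138 of the 4345 regulator tiles (95.2%) and 11960 of the 13494 adhesion tiles (88.6%) fell, with median changes of -16.0 and -15.3 points, and none rose in either list by edgeR. Over all desert tiles 91.1% fell, and over all tiles tested 95.1%, so the share in the regulator tiles is that of all tiles. The shallowest library had a median of 211 calls in the regulator tiles and 132 in the adhesion tiles. At t=0 the clones' mean was 3.42 points above WT in regulator tiles, 1.15 points in adhesion tiles and 2.98 points in tiles of neither list. The regulator tiles lie at a median of 380 kb from a gene and the adhesion tiles at 665 kb, so list, distance and CpG number cannot be told apart here.

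Large regulator deserts had similar values. That between Zeb2, a zinc-finger repressor of epithelial genes, and the activin receptor gene Acvr2a (324 tiles) had 58.5% and 57.0% in N5 and N9 on day 25, against 73.2% and 72.6% at t=0. That between Nr2f1, an orphan nuclear receptor of cortical patterning, and Arrdc3 (228 tiles) had 56.1% and 55.4%, against 72.7% and 71.8%. That between the RNA-binding protein gene Celf2 and Gata3, a transcription factor of T cells and the inner ear (204 tiles), had 59.4% and 58.0%, against 74.2% and 73.7%. In WT these 3 deserts changed by -0.040, -0.54 and -0.061 points over the same interval, and the clones' values on day 25 lie below those of WT in each.

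Single tiles stood far from the rest. The lowest was chr3:5860001-5870000, between Pex2 and 1700008P02Rik, with 60.3 calls per CpG against a median of 4.63 in desert tiles. It had 4.27% and 4.75% in N5 and N9 at t=0, 2.12% and 2.69% on day 25 and 4.23% and 7.04% in embryoid bodies. In WT it had 4.71% at t=0, 6.15% on day 25 and 6.82% in embryoid bodies. No gene is annotated in it, and it is among 3 desert tiles above 3 times the median depth. Another of these 3 is chr18:85690001-85700000, described below, with 23.0 calls per CpG. What raised the depth of these tiles, and whether it bears on their low levels, was not tested. The tile chr12:23010001-23020000 holds the unmethylated start of 2410018L13Rik shown above, at a mean of 7.81% over 12 libraries, with 0.74 calls per CpG. The third lowest, chr18:85690001-85700000, between Fbxo15, a gene of pluripotent cells, and Neto1, had 12.1% and 14.9% in the clones at t=0, 6.54% and 9.12% on day 25, and 12.7% and 14.9% in WT at those stages.

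The tile over Lncenc1 (chr13:97480001-97490000, between Enc1 and Arhgef28) is named after its values were seen, because this long non-coding RNA is known from mouse embryonic stem cells. It had 30.6% and 23.4% in N5 and N9 at t=0, 13.3% and 19.4% on day 10, 9.77% and 10.2% on day 25 and 26.3% and 35.02% in embryoid bodies. The WT values were 22.2%, 19.6%, 22.7% and 13.6%. In embryoid bodies the clones thus lay above WT, and on day 25 below it. The 3 tiles with most CpG rows, 381 (chr10:27820001-27830000), 311 (chr8:52300001-52310000) and 281 (chr15:15050001-15060000), had only 0.27, 0.19 and 0.29 calls per CpG. Their levels on day 25 were 38.6% and 51.7%, 59.1% and 36.5%, and 70.1% and 69.8% in N5 and N9, against 79.4%, 79.5% and 88.0% in WT.

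Over all 9 comparisons the 33 tiles named for the largest called changes had a median of 69 calls in their shallowest library, against 154 over all desert tiles. The exception is KI against WT on day 10, where the 3 tiles had a median of 161 calls. The largest fall on day 25 was in chr14:45890001-45900000, a tile with 31 calls in its shallowest library that lies between Ddhd1 and Bmp4, a morphogen gene. It had 84.4% and 74.2% in N5 and N9 at t=0, 44.1% and 49.1% on day 10, 35.4% and 22.5% on day 25 and 86.0% and 53.5% in embryoid bodies. In WT it had 42.0%, 39.7%, 46.6% and 64.3%, so that both clones lay above WT at t=0 and below it on day 25 (edgeR, adjusted p = 2.73e-05 for day 25 against t=0). The tile chr4:92810001-92820000, between Izumo3 and Tusc1, had 38.1% and 35% on day 25, against 80% and 84.1% at t=0 (edgeR, adjusted p = 5.33e-07). The WT values were 65.5% on day 25, against 42.9% at t=0. The tile chr4:21180001-21190000, between Nkain3 and Prdm13, a neuronal transcription factor gene, had 38.3% and 33.0%, against 83.1% and 78.8% (edgeR, adjusted p = 1.11e-07). The shallowest library held 40 and 65 calls in these tiles of chromosome 4.

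The 2 tiles whose change on day 25 was higher in KI than in WT rest on the WT libraries. In chr14:92030001-92040000, between Pcdh20 and Pcdh9, N5 and N9 had 80.6% and 73.8% on day 25, against 80.7% and 72.4% at t=0. WT had 84.5% on day 25, against 95.9% at t=0 (edgeR, adjusted p of the difference in change = 0.0323). In chr12:23180001-23190000, between Gm38538 and Gm40862, N5 and N9 had 26.0% and 28.8% on day 25, against 32.6% and 65.3% at t=0. WT had 21.2% on day 25, against 75.3% at t=0 (edgeR, adjusted p = 0.0156). In the first tile the clones hardly moved, and in the second they were lower on day 25 by less than WT was. The shallowest library held 34 and 72 calls in these tiles.

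The largest rise against day 25 in embryoid bodies was in chr10:15060001-15070000, a tile with 31 calls in its shallowest library. It lies between the neuromedin B receptor gene Nmbr and Cited2, a transcriptional coregulator. It had 78.8% and 87.5% in the clones' embryoid bodies, against 14.5% and 22.6% on day 25 (edgeR, adjusted p = 2.77e-08), and 73.1% and 38.7% in WT at those stages. In embryoid bodies the largest excess over WT was in chr16:68540001-68550000, between Cadm2, a synaptic adhesion molecule, and Speer2, with 62.2% and 66.7% in KI against 30.7% in WT (edgeR, adjusted p = 0.0267).

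Non-coding genes are the annotated content of the deserts. A long non-coding RNA gene touched 5111 desert tiles (11.5%), and 37086 tiles (83.7%) touched no annotated gene of any kind. Tiles with a long non-coding RNA gene had 57.6% and 56.4% in N5 and N9 on day 25, against 73.2% and 73.1% at t=0, and 69.7% and 69.6% in WT at those stages. Tiles without one had 58.6% and 57.4%, against 73.8% and 73.5%, and 71.2% in WT at both. The clones' change was -16.2 points with such a gene and -15.7 points without, and the level at these 2 stages was slightly lower with one. In embryoid bodies N5 had 79.8% with such a gene and 79.7% without, and N9 had 81.1% and 81.6%. Tiles with such a gene had a median of 57 CpG rows, against 48 without, and the part of CpG number was not tested.

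The start windows of these genes fell by CpG number rather than as 1 group. The mean over 12 libraries had a median of 69.9% in the 147 windows with 5 to 9 CpG rows, 52.9% in the 25 with 10 to 14 and 13.7% in the 12 with 15 or more. In 136 of 184 windows both clones were lower on day 25 than at t=0, and in 3 both were higher, while WT was lower in 77 and higher in 103. In 166 windows both clones were higher in embryoid bodies than on day 25, and in none were both lower, while WT was higher in 136 and lower in 45.

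The 22 windows under 20% gained methylation in embryoid bodies in most cases, as did most start windows. Their median was 5.53% and 5.37% in N5 and N9 at t=0, 4.88% and 6.01% on day 10, 5.18% and 3.22% on day 25, and 19.3% and 21.3% in embryoid bodies. In WT it was 7.08%, 4.95%, 4.93% and 10.8%. Both clones were higher in embryoid bodies than on day 25 in 19 of the 22 and than at t=0 in 17, against 14 and 15 in WT. Over all 184 windows these counts were 166 and 113 in the clones and 136 and 145 in WT. The share of the 22 that rose against day 25 is thus not above that of all windows. Against t=0 it was above that of all windows in the clones and below it in WT, which was not tested. The 22 windows were chosen on their mean over all 12 libraries, and windows of so few CpGs were not tested singly.

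**Figure D5:**
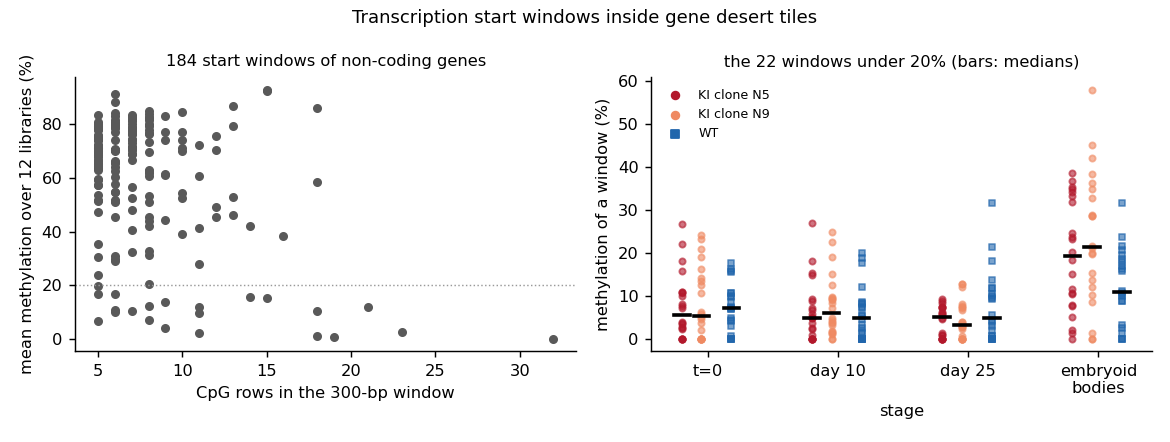
Left, mean methylation over 12 libraries (%) against CpG rows of the 184 start windows of 300 bp in gene desert tiles, with a dotted line at 20%. Right, methylation (%) of the 22 windows under 20% by stage in N5, N9 and WT, with bars at the medians, which reach 19.3%, 21.3% and 10.8% in embryoid bodies.

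The microRNA host windows belong to this set. Mir100hg, whose sequence is given above, had 18.1% and 13.4% in N5 and N9 at t=0, 9.17% and 9.16% on day 10, 5.78% and 7.22% on day 25, and 18.3% and 45.2% in embryoid bodies. In WT it had 9.90%, 4.57%, 21.4% and 21.7%. Mir99ahg on chromosome 16, the host transcript of mir-99a and let-7c-1, had 3.45% and 16.2% in the clones at t=0, 9.26% and 12.7% on day 25 and 33.3% and 28.6% in embryoid bodies, over 8 CpG rows. The WT values were 7.14%, 3.85% and 16.9% at those stages. In both windows each clone had its highest value of these stages in embryoid bodies. For Mir100hg, however, N5 stood there only 0.26 points above its t=0 value, against 31.8 points in N9.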

How the data were processed

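The libraries were whole-genome bisulfite libraries after oxidation, sequenced in 2 lanes each. The authors' deposited table holds, per CpG of mm10, the count of methylated calls and the count of all calls for each library. BWA, Picard 1.91 and mm10 are named in the submitters' processing notes, and the sources used here do not name the tool that called methylation. Columns of a WT stage share an index and flow cell in the labels and were summed as lanes. Counts were summed over tiles of 10000 bp. Distances were taken to 20665 protein-coding genes of the RefSeq annotation of GRCm38.p6. All 248191 tiles with 5 or more CpG rows and 30 or more calls in every library entered 1 edgeR 4.0.16 quasi-likelihood F test on methylated and unmethylated counts, over 8 groups with 4 residual degrees of freedom, in R 4.3.3. The fit used 1 common dispersion and moderated the spread of each tile across tiles, with 36.1 prior degrees of freedom. Tile p-values thus rest largely on a spread shared across tiles. The Benjamini-Hochberg adjustment ran over all tiles, with a threshold of 0.05. Nothing in the labels says whether libraries of 1 clone came from separate cultures, so p-values measure the spread between these libraries. Levels were compared by exact sign-flip tests. The script was tested on simulated data in which few tiles changed, so that test does not cover a change of nearly all tiles.

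Alternatives were limma 3.58.1 on logit values, a clone block, a flow cell term, other limits and leaving out each clone library. Named tiles were the 3 with the largest change in each direction of each comparison among those called with both clones on 1 side, the 3 with the lowest level and the 3 with most CpG rows. Named deserts were the 5 with most tiles and 3 of the 4 largest beside a listed regulator, and those with the largest and smallest changes were picked on these values. The start windows shown were picked on level and CpG number. Some items named by these rules are not reported here. Tiles, lists and windows were chosen with earlier results of these data known. The same clone links libraries of 1 number across stages, and its deviations from the clone mean correlated at -0.031 to 0.015 over tiles.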

Additional observations from a re-analysis of the deposited data

Results flagged for a closer look

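By the interaction test, KI and WT cells changed differently up to day 25 in 46.4% of desert tiles on the lower side, against 67.4% of all tiles, and in 0.00451% on the higher side, against 0.00363%. Among tiles named for it, the KI change minus the WT change was -68.2 points in chr4:92810001-92820000, -62.7 points in chr10:54690001-54700000 and -60.8 points in chr12:71590001-71600000. It was 32.6 points in chr12:23180001-23190000 and 12.0 points in chr14:92030001-92040000. In the first 3 tiles the single WT library rose, from 42.9% to 65.5%, from 57.8% to 82.7% and from 46.2% to 74.6%. The differences thus hold a WT rise beside the KI fall. In the chr10 tile N5 and N9 went from 61.0% and 68.75% to 30.5% and 23.7%. In the chr12 tile at 71590001 they went from 70.6% and 68.4% to 36.8% and 37.3%.

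Coverage, which no comparison used, stood above that of WT on chromosome 8 in all KI libraries and on chromosome Y in 4 of them. On chromosome X it was 0.589 and 0.590 of the autosomal coverage in N5 and N9 at t=0, against 0.753 in WT. In embryoid bodies it was 0.723 and 0.586 there, against 0.697 in WT. The first 3000000 bp of chromosome Y had 0.0378 and 0.0394 of the autosomal coverage in N5 and N9 at t=0, and 0.0127 and 0.0107 on day 25, against at most 0.00186 in WT. Chromosome 8 had 1.32 and 1.32 of the autosomal coverage in N5 and N9 at t=0, 1.09 and 1.32 on day 10, 1.36 and 1.35 on day 25, and 1.34 and 1.19 in embryoid bodies, against 0.999 to 1.04 in WT.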

How the results depend on the processing

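The shares of desert tiles called on day 25 against t=0, in embryoid bodies against day 25 and for the difference in change between KI and WT stayed within 1.5 times under all alternatives run. Limma called 0% for day 10 against t=0 and for KI against WT at t=0, on day 10 and as embryoid bodies. With a flow cell term and no replicate block the share was 0.99% for day 10 against t=0, 0.208% for KI against WT at t=0 and 0.0767% in embryoid bodies. With the replicate block and the flow cell term it was 0.00903% for day 10, and for KI against WT 0.0339% at t=0, 0.0722% on day 10, 39.5% on day 25 and 0.0226% in embryoid bodies. The replicate block alone moved no such share by over 1.5 times, with 90.7% on day 25 against t=0. At 500 kb or more from a gene the share was 1.55% for day 10 and 0.286% for KI against WT at t=0, and the pooled change on day 10 was -3.25 points. With chromosome 8 left out, 0.0144% differed between KI and WT on day 10. With the WT columns as separate libraries it was 2.11% at t=0, 0.158% on day 10 and 0.535% for embryoid bodies. Leaving out 1 clone library gave 0.00903% to 3.92% for day 10 against t=0, 18.7% to 39.5% for embryoid bodies against t=0, 78.6% to 91.9% for day 25 against t=0 and 95.6% to 98.98% for embryoid bodies against day 25. For KI against WT it gave 0.0429% to 0.869% at t=0, 0.0248% to 0.0767% on day 10, 47.4% to 65.5% on day 25, 0.0903% to 0.172% for embryoid bodies, and 37.8% to 49.3% for the difference in change. The pooled change ran from -4.06 to -3.49 points on day 10, from -16.3 to -15.2 points on day 25, from 21.9 to 23.7 points in embryoid bodies against day 25 and from 6.11 to 7.93 points against t=0. The desert level exceeded that of tiles touching a gene by 0.13 points at 5 to 19 CpG rows, and it differed from that of the tiles between by -0.44 points there and by 0.28 points at 20 to 39 rows. The cause of these differences was not tested.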
